A study of Homo sapiens with 4 samples.

Results

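Genes of the cornified envelope and of keratinocyte differentiation were followed across 4 Affymetrix arrays of MCF10A cells, an immortalized but non-tumorigenic line of human mammary epithelium. The set held 35 named genes, and each was represented by its brightest probe set, by mean intensity over the 4 arrays, among those annotated to exactly 1 gene symbol. All 35 had such a probe set, out of 19775 genes represented in the same way. The 35 genes were chosen with earlier results of these data known, so their counts beside all genes are description only. The cells differed in the retrovirus they had received. Vector cells carried the empty pQCXIH vector, while the YAP-WT, the YAP-S94A and the YAP-W1W2 cells carried pQCXIH with wild-type YAP, with YAP changed in the part that binds the TEAD transcription factors, or with YAP changed in its 2 WW domains, modules that bind proline-rich motifs. All 4 cultures therefore shared infection and the vector backbone, and all were cultured in the same medium, supplemented with horse serum, EGF, hydrocortisone, insulin and cholera toxin. The promoter that drives YAP, whether cells were pooled or clonal, and the time after infection were not given in the sources used here. With 1 array per group and no replicate, every difference below is between 2 arrays and has no error and no test.

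The cornified envelope is the cross-linked protein shell that replaces the membrane of a dying keratinocyte. Involucrin, the small proline-rich proteins (SPRR) and the late cornified envelope proteins are its precursors, transglutaminases join them, lipoxygenases and the transporter ABCA12 serve the lipid layer outside it, and cystatins, elafin and SLPI restrain the proteases that loosen dead cells. Many of the precursor genes lie together in the epidermal differentiation complex. In skin, YAP together with TEAD factors is known for favouring proliferation of basal cells over differentiation. Mammary epithelium does not cornify, but cultured basal-like mammary cells express part of this programme.

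Intensities up to 72.9, the 40th percentile of the 4 arrays together, were taken as background, set to that floor and called at the floor. A fold against a value at the floor is a lower bound, written as at least that fold, and none is given where both arrays were at the floor. Of the 35 genes, 19 were above the floor on all 4 arrays, 10 on some arrays, and 6 on none: FLG, CDSN, DSC1, ALOX12B, KRTDAP and RHCG. Levels of different probe sets are not comparable with each other, so each gene is compared with itself across arrays. The basal keratins KRT5 and KRT14 lay between 30482 and 39724 on the 4 arrays, and 7 of 7 mammary epithelial markers with a probe set were above the floor on all 4. YAP1 itself, on 3 probe sets, ran from 872 to 4657 with no 2-fold difference between arrays on any of them, and whether these probe sets detect the introduced YAP is not known.

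**Figure D1:**
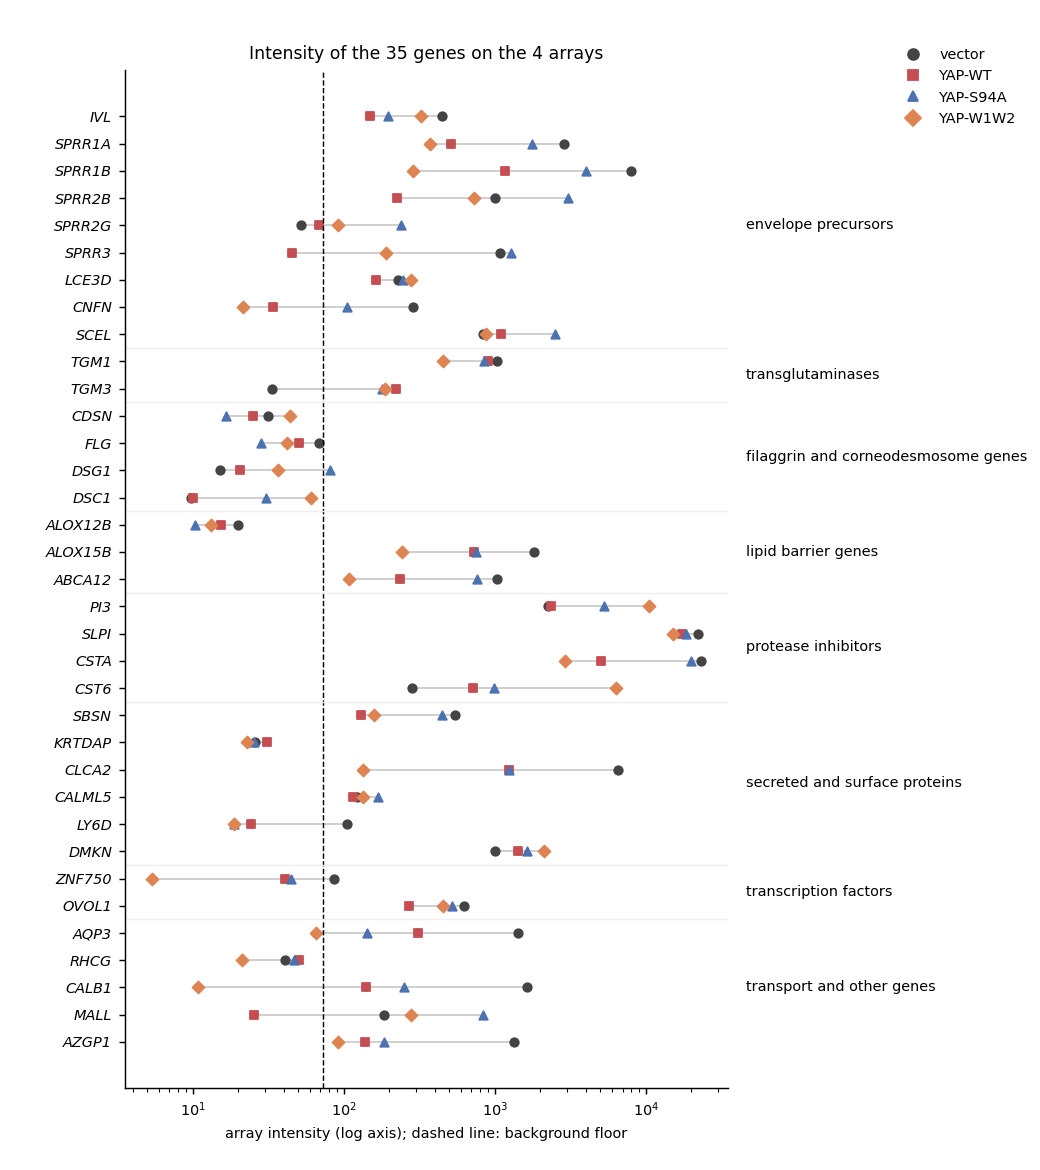
Array intensity (log axis) of the brightest probe set of each of the 35 genes, with 1 point per array and genes grouped by role; the dashed line is the background floor of 72.9. Vector was the highest array for IVL, SPRR1A, SPRR1B and CNFN among the envelope precursors and YAP-S94A for SPRR2B, SPRR2G, SPRR3 and SCEL, while PI3 and CST6 were highest in YAP-W1W2. The other SPRR3 probe set, not shown here, was highest in vector. The filaggrin and corneodesmosome genes lay at or near the floor throughout.

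Among the 29 genes above the floor on at least 1 array, the vector array was the highest for 17, YAP-S94A for 7, YAP-W1W2 for 4 and YAP-WT for 1, the transglutaminase TGM3. SPRR3 is among the 7 by the brighter of its 2 probe sets, and by the other vector was highest. By values before flooring, the lowest array was YAP-W1W2 for 13, YAP-WT for 8, vector for 7 and YAP-S94A for 1, LY6D. All 3 YAP arrays of LY6D were at the floor. For CNFN, ZNF750, SPRR2G and DSG1 the lowest value was likewise among several at the floor, so their lowest array is not resolved. The set thus did not move as a block. Highest and lowest arrays were not counted over all genes, so these counts describe the 29 genes alone. SPRR1A, SPRR1B, cystatin A, suprabasin and ABCA12 were low with wild-type YAP and with the WW-domain mutant and closer to vector with S94A. CLCA2, ALOX15B, AQP3, CALB1 and AZGP1 were low with all 3 forms. SPRR2B, MALL and SCEL were highest with S94A, and CST6 and PI3 with the WW-domain mutant.

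The comparison of YAP-WT and vector asks how this programme differs when wild-type YAP is introduced. At least 2-fold lower in YAP-WT were 16 of the 35 genes, against 4.22% of all 19775 genes. Higher by as much were 2, TGM3 and the cystatin CST6, against 6.42% of all genes. A further 9 genes were not called at 2-fold, and 8 were at the floor on both arrays. Among the 9, the folds of LY6D and ZNF750 are lower bounds, with YAP-WT at the floor. With the floor at the 20th percentile both passed 2-fold, and 18 genes were lower. The median log2 difference over the 35 genes, with genes at the floor on both arrays counted as 0, was −0.48, where the median of all genes was 0. The 16 were IVL, SPRR1A, SPRR1B, SPRR2B, SPRR3, CNFN, ALOX15B, ABCA12, CSTA, SBSN, CLCA2, OVOL1, AQP3, CALB1, MALL and AZGP1. Without the SPRR2B probe set and with other probe sets for SPRR1A and SPRR3, a setting chosen after the data were seen and described with those genes, the count of lower genes was 15 of 34.

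Against vector, YAP-S94A asks the same of a YAP with a changed TEAD-binding part. It had 7 of the 35 genes at least 2-fold lower, against 5.3% of all genes, and 7 higher, against 7.18%, with a median log2 difference of 0. The lower genes were IVL, CNFN, CLCA2, ALOX15B, AQP3, CALB1 and AZGP1, and the higher ones SPRR2B, SPRR2G, SCEL, TGM3, PI3, CST6 and MALL. In YAP-W1W2, which asks the same without intact WW domains, 13 genes were at least 2-fold lower than in vector, against 6.51% of all genes, and 4 higher, against 8.47%, with a median of −0.45. The 13 were SPRR1A, SPRR1B, SPRR3, CNFN, TGM1, ALOX15B, ABCA12, CSTA, SBSN, CLCA2, AQP3, CALB1 and AZGP1, and the 4 were TGM3, PI3, CST6 and DMKN. These 3 comparisons share the vector array, so a value that is off on that array moves all of them. The median of the brighter genes, those with a mean intensity of at least 113.6, lay above vector by 0.14 with wild-type YAP, 0.14 with S94A and 0.10 with W1W2 (log2). With array medians centred, the split of all genes changed from 835 lower and 1270 higher to 1170 and 926 for YAP-WT, and from 1048 and 1420 to 1405 and 1028 for YAP-S94A, while the 35 genes stayed at 16 and 2 for YAP-WT and went to 8 and 7 for YAP-S94A.

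The direct comparisons of YAP forms leave the vector array out. YAP-S94A stood at least 2-fold above YAP-WT for 11 of the 35 genes, against 3.84% of all genes, and below it for 1, AQP3, against 4.52%, with a median log2 difference of 0.42. The 11 were SPRR1A, SPRR1B, SPRR2B, SPRR2G, SPRR3, SCEL, ABCA12, PI3, CSTA, SBSN and MALL, of which SPRR3 rests on 1 of its 2 probe sets. AQP3 likewise passed 2-fold by its brightest probe set alone. Another put it 1.42-fold lower, and its last had both arrays at the floor. YAP-W1W2 stood at least 2-fold below YAP-WT for 5 genes (SPRR1B, CLCA2, ALOX15B, ABCA12 and AQP3), against 4.14%, and above it for 6 (IVL, SPRR2B, SPRR3, PI3, CST6 and MALL), against 3.43%, with a median of 0. YAP-W1W2 stood at least 2-fold below YAP-S94A for 14 genes, against 3.45%, and above it for 1, CST6, against 4.08%, with a median of −0.35. The 14 were SPRR1A, SPRR1B, SPRR2B, SPRR2G, SPRR3, SCEL, ALOX15B, ABCA12, CSTA, SBSN, CLCA2, CALB1, MALL and AZGP1. SPRR3 is among them by the brighter of its 2 probe sets, and the other put it 2.24-fold higher. Centring changed the split of all genes from 818 lower and 678 higher to 560 and 973 for YAP-W1W2 against YAP-WT, and from 683 and 807 to 519 and 1079 for YAP-W1W2 against YAP-S94A; the 35 genes then had 5 and 6, and 13 and 2.

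**Figure D2:**
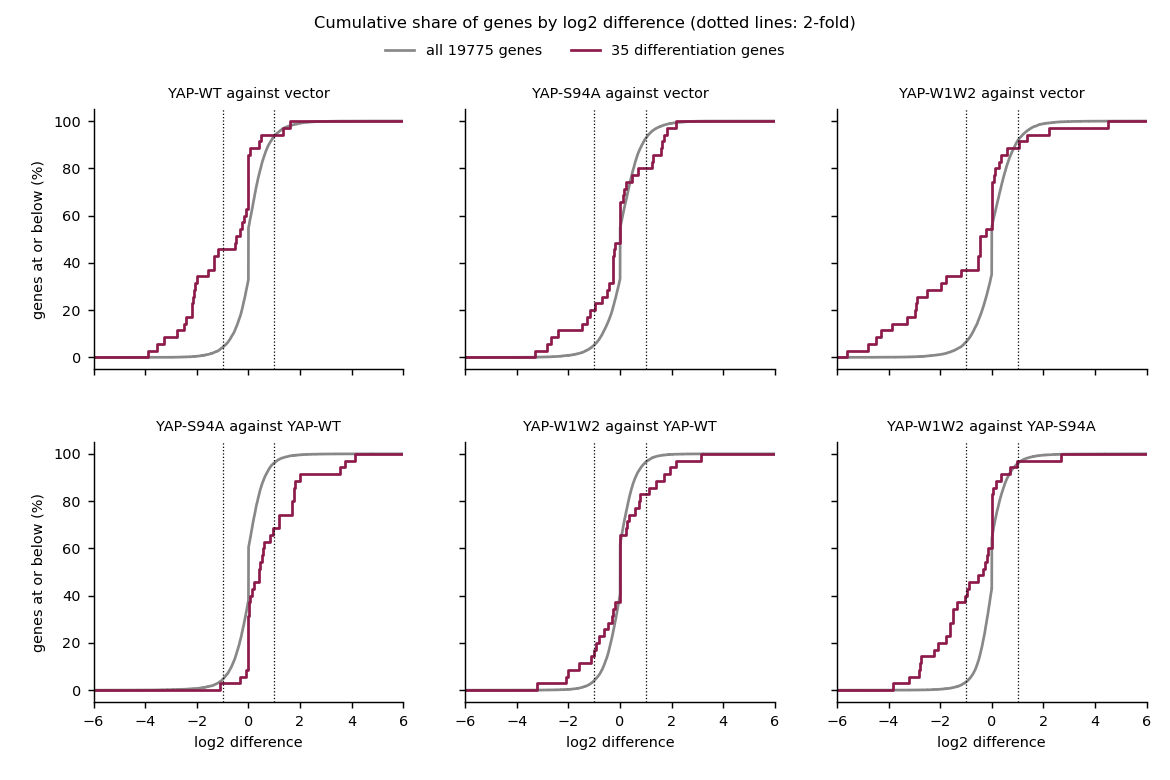
Cumulative share of genes (vertical axis, percent) at or below each log2 difference (horizontal axis) for the 35 differentiation genes and for all 19775 genes in the 6 comparisons; dotted lines mark 2-fold, and the step at 0 holds genes at the floor on both arrays. The curve of the 35 genes lies to the left of all genes for YAP-WT against vector, where 16 genes are past 2-fold, and to the right for YAP-S94A against YAP-WT, where 11 are.

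On the same arrays the bacterial hybridization controls bioB, bioC and bioD were lower than in vector. Of the 4 control sets, bioB differed most from vector, by a mean log2 value of −0.47 with wild-type YAP, −0.83 with S94A and −1.28 with W1W2. The cre set differed least, by 0.02, −0.20 and −0.51 in the same order. The ratio of 3′ to 5′ signal, a sign of RNA quality, ran from 0.961 to 1.04 for GAPDH and from 0.964 to 1.16 for actin. The fibroblast list, with 7 of 7 genes having a probe set, summed to 10121 in vector, 5307 with wild-type YAP, 1189 with S94A and 1511 with W1W2. The fall was that of decorin (DCN), at 9344, 3884, 288 and 248 in the same order. COL1A2 and COL3A1 were instead lowest in vector, COL1A1 was lowest with S94A, and PDGFRB was above the floor in vector alone. PDGFRA, COL3A1 and LUM were at the floor in vector. Such sums add probe sets whose levels are not comparable with each other. The mammary epithelial list summed to 85778, 109583, 113141 and 137450 in the same order, with the luminal keratin KRT18 at 5609 in vector and 34605 with W1W2. ITGB4 was instead at 6565 in vector and 4627 with W1W2, and KRT5 at 30820 and 30482. The others, KRT8, KRT14, CDH1 and EPCAM, were higher with W1W2 than in vector. Immune markers, 3 of 5 having a probe set, summed to between 125.5 and 397, with CD3E and PTPRC at the floor in vector and CD14 at 312. With wild-type YAP, CD3E was at 256, PTPRC just above the floor at 74.6, and CD14 at the floor. With S94A only CD14 was above the floor, at 144, and with W1W2 none was. Of 4 endothelial markers, CDH5 and VWF were at the floor on all arrays and PECAM1 above it on all, and the list summed to between 579 and 867. Melanocyte markers, 3 of 4 having a probe set, summed to between 271 and 466. The part of these values in the results was not tested. In bulk RNA, fewer cells that express a gene and less RNA per cell cannot be told apart.

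The small proline-rich genes encode short precursor proteins with repeated proline-rich units. SPRR1B had an intensity of 7996 in vector, 1169 with wild-type YAP, 4024 with S94A and 287 with W1W2. It was thus 6.84-fold lower in YAP-WT and 27.9-fold lower in YAP-W1W2 than in vector, and 1.99-fold lower in YAP-S94A, just short of 2-fold. YAP-S94A was 3.44-fold above YAP-WT, and YAP-W1W2 was 4.08-fold below YAP-WT. SPRR1A, its close paralog, followed the same order of arrays. Its brightest probe set gave 2851 in vector, 509 with wild-type YAP, 1765.5 with S94A and 373 with W1W2, and was 5.60-fold, 1.61-fold and 7.64-fold lower than vector in turn. The other SPRR1A probe set gave 2893, 291, 1711 and 20.1, the last at the floor, so by it YAP-W1W2 was at least 39.7-fold lower than vector.

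SPRR2B took another course. Its intensity was 1000.2 in vector, 226 with wild-type YAP, 3057 with S94A and 731 with W1W2, so that YAP-WT was the lowest and YAP-S94A the highest array. Relative to vector it was 4.43-fold lower in YAP-WT and 3.06-fold higher in YAP-S94A, and 1.37-fold lower in YAP-W1W2. YAP-S94A stood 13.5-fold above YAP-WT. SPRR2G, a related gene of the same subfamily, was at the floor in vector and YAP-WT, at 92.3 with W1W2 and at 238 with S94A. YAP-S94A was at least 3.26-fold above either of those arrays.

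SPRR3, a precursor of stratified wet epithelia such as the oesophagus, was low in YAP-WT by both of its probe sets, and these differed from each other in YAP-S94A. The brighter gave 1088 in vector, 45.6 with wild-type YAP, 1279 with S94A and 191 with W1W2. The other gave 1218, 52.1, 102 and 228. YAP-WT was at least 14.9-fold lower than vector by the first and at least 16.7-fold by the second, and YAP-W1W2 5.70-fold and 5.34-fold lower. For YAP-S94A the first put SPRR3 1.18-fold above vector and the second 11.9-fold below it, and against YAP-WT the folds were at least 17.5-fold and at least 1.40-fold higher. YAP-W1W2 against YAP-S94A was 6.70-fold lower by the first and 2.24-fold higher by the second. No direction can be given for SPRR3 with S94A from these arrays. The probe sets used for SPRR1A, SPRR2B and SPRR3 carry the suffix _x, which the manufacturer gives to probe sets that may also bind other transcripts, and the SPRR genes resemble each other, so their signals may be shared. The SPRR1B probe set carries no such suffix.

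The sequences just before the start sites of 4 neighbouring SPRR genes are shown. SPRR1A and SPRR1B had an order of arrays unlike that of SPRR2B, and YAP-S94A bears on TEAD. Each run is the 180 bases before the start, from RefSeq on GRCh38.p14, read 5′ to 3′ along the gene: chr1:152983901-152984080 on the plus strand for SPRR1A, chr1:153031023-153031202 plus for SPRR1B, chr1:153001569-153001748 plus for SPRR3 and chr1:153071612-153071791 minus for SPRR2B. Capitals mark matches on either strand to the AP-1 motif TGANTCA, to the TEAD motif GGAATG and to the TATA motif TATAAA.

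SPRR1A: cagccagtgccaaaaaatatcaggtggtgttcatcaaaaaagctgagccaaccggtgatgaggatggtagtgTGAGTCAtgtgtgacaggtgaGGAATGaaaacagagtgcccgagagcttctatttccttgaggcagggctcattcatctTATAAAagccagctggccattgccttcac

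SPRR1B: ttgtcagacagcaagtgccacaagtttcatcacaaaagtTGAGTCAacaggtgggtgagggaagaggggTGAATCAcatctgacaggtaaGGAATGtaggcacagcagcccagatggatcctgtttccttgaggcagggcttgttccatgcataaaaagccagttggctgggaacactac

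SPRR3: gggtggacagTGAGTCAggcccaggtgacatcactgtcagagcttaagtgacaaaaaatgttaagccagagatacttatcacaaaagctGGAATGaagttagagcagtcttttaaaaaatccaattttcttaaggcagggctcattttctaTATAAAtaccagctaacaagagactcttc

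SPRR2B: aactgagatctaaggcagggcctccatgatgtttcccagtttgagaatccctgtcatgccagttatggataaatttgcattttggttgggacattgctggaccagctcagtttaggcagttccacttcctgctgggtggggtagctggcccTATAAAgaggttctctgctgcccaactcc

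SPRR1A, SPRR1B and SPRR3 each had GGAATG at a like place, starting 87, 90 and 91 bases before the start, and each had TGANTCA upstream of it: at 108 bases in SPRR1A, at 141 and 111 in SPRR1B and at 170 in SPRR3. SPRR2B matched neither motif in the 250 bases before its start. By its brighter probe set SPRR3, which has both motifs, had the same order of arrays as SPRR2B. Its other probe set gave an order unlike those of SPRR1A and SPRR2B. Whether the matches bear on the array orders was not tested. These genes are paralogs and share sequence, so the matches are not independent of each other. Over the 24 of the 35 genes with an entry in the promoter table, TGANTCA was found in the 250 bases before the start of 10 and GGAATG in 8, where the shares among all 27305 promoters were 6.60% and 11.9%. TATAAA was found in 10, against 11.1%. In FLG the AP-1 and TEAD matches overlapped by 2 bases, and in TGM3 TATA matches on opposite strands overlapped by 4. Such a match is a run of letters and does not show that a factor binds there.

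Involucrin (IVL), an early scaffold of the envelope, had an intensity of 447 in vector, 150.2 with wild-type YAP, 197 with S94A and 323 with W1W2. It was 2.98-fold lower than vector in YAP-WT and 2.27-fold lower in YAP-S94A, and it stood 2.15-fold higher in YAP-W1W2 than in YAP-WT. Cornifelin (CNFN), another envelope component, was at 288 in vector and 105 with S94A and at the floor in YAP-WT and YAP-W1W2. It was 2.75-fold lower in YAP-S94A and at least 3.95-fold lower in the other 2 forms.

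Sciellin (SCEL), a precursor linked to the envelope of stratified epithelia, was highest in YAP-S94A, at 2483.5, against 832 in vector, 1095 with wild-type YAP and 880.0 with W1W2. YAP-S94A was 2.99-fold above vector and 2.27-fold above YAP-WT. All 3 of its probe sets above the floor put YAP-S94A above vector, by log2 differences of 1.24 to 1.58. LCE3D, of the late cornified envelope family, ran from 164 with wild-type YAP to 279 with W1W2, with no 2-fold difference in any comparison.

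Of the cross-linking enzymes, TGM1 was below vector and TGM3 above it on all 3 YAP arrays. TGM1, the membrane-bound keratinocyte transglutaminase, was at 1026 in vector, 901 with wild-type YAP, 844 with S94A and 452 with W1W2, and was 2.27-fold lower in YAP-W1W2. TGM3, the epidermal transglutaminase, was at the floor in vector and at 223, 178 and 186.5 on the YAP-WT, YAP-S94A and then the YAP-W1W2 array. It was at least 3.06-fold, 2.45-fold and 2.56-fold higher than in vector, and the 3 YAP arrays lay within 1.25-fold of each other.

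Late markers of the granular and horny layers lay at or just above the floor. Filaggrin (FLG), which bundles keratin filaments, ran from 28.5 to 68.6, corneodesmosin (CDSN) from 16.7 to 44.4 and desmocollin 1 (DSC1) from 9.7 to 61.1. The desmosomal cadherin DSG1 was above the floor in YAP-S94A alone, at 80.7. At these intensities a difference between arrays was not detectable.

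Of the genes of barrier lipids, ALOX12B, the 12R-lipoxygenase, was at the floor throughout, from 10.3 to 20.0. ABCA12, which loads lipid into lamellar granules, was at 1038 in vector, 237 with wild-type YAP, 765 with S94A and 108 with W1W2. It was 4.37-fold lower in YAP-WT and 9.62-fold lower in YAP-W1W2, and 1.36-fold lower in YAP-S94A, which stood 3.22-fold above YAP-WT. ALOX15B, a 15-lipoxygenase, was at 1830 in vector, 732 with wild-type YAP, 745 with S94A and 243 with W1W2. Here the YAP-WT and YAP-S94A arrays differed by 1.02-fold, at 2.50-fold and 2.46-fold below vector, and YAP-W1W2 was 7.53-fold below.

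The protease inhibitors went opposite ways. Cystatin A (CSTA), a cysteine protease inhibitor built into the envelope, was at 22999 in vector, 5042 with wild-type YAP, 19971.5 with S94A and 2894 with W1W2. YAP-S94A lay within 1.15-fold of vector, while YAP-WT was 4.56-fold and YAP-W1W2 7.95-fold lower. Cystatin M/E (CST6), which restrains cathepsins and legumain in skin, was at 281.5 in vector, 717 with wild-type YAP, 981 with S94A and 6325 with W1W2. It was 2.55-fold, 3.48-fold and 22.5-fold higher than in vector, and YAP-W1W2 stood 8.82-fold above YAP-WT and 6.45-fold above YAP-S94A. By its other probe set, at the floor in vector, YAP-WT was at least 1.96-fold and YAP-W1W2 at least 12.1-fold higher.

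Elafin (PI3), an elastase inhibitor that transglutaminases attach to the envelope, was at 2256 in vector, 2344 with wild-type YAP, 5283 with S94A and 10494 with W1W2. Vector and YAP-WT differed by 1.04-fold, whereas YAP-S94A was 2.34-fold and YAP-W1W2 4.65-fold above vector. Its other probe set gave 2.96-fold and 6.82-fold. SLPI, the secretory leukocyte protease inhibitor, ran from 15131 with W1W2 to 22180.2 in vector, a difference of 1.47-fold.

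Among secreted and surface proteins, suprabasin (SBSN), of the suprabasal layers, was at 543 in vector, 131 with wild-type YAP, 447 with S94A and 159.6 with W1W2. It was 4.15-fold lower in YAP-WT and 3.40-fold lower in YAP-W1W2, and within 1.21-fold of vector in YAP-S94A. CLCA2, a surface protein of the basal and squamous epithelium, was at 6565 in vector, 1239.5 with wild-type YAP, 1246 with S94A and 135 with W1W2. YAP-WT and YAP-S94A were 5.30-fold and 5.27-fold lower than vector, and YAP-W1W2 48.8-fold lower. All 4 CLCA2 probe sets were lower than vector in each form, by log2 differences of −2.70 to −2.41 with wild-type YAP, −2.51 to −1.71 with S94A and −5.87 to −4.64 with W1W2. The −5.87 is a bound, because that probe set was at the floor in YAP-W1W2.

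Dermokine (DMKN), a secreted epidermal protein, was at 1009 in vector, 1424.5 with wild-type YAP, 1644 with S94A and 2109 with W1W2, and passed 2-fold in YAP-W1W2, at 2.09-fold higher. The calmodulin-like gene CALML5 ran from 114.6 to 169.7. LY6D, a surface marker of keratinocytes, was at 104.8 in vector and at the floor in the other 3 cultures, at least 1.44-fold lower. KRTDAP lay at the floor on all arrays.

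Both transcription factors of the set were highest in vector. OVOL1, which limits keratinocyte proliferation during differentiation, was at 622 in vector, 272 with wild-type YAP, 520.5 with S94A and 453.5 with W1W2. It was 2.29-fold lower in YAP-WT, and YAP-S94A stood 1.91-fold above YAP-WT. ZNF750, a regulator of terminal differentiation downstream of p63, was near the floor in vector, at 85.8, and at the floor in the 3 YAP cultures, so its difference is at least 1.18-fold.

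The water and glycerol channel AQP3, of the basal and spinous layers, was at 1415 in vector, 309.7 with wild-type YAP, 143 with S94A and 65.6 with W1W2. It was 4.57-fold lower than vector in YAP-WT, 9.91-fold in YAP-S94A and at least 19.4-fold in YAP-W1W2. A second AQP3 probe set gave smaller differences, of 1.68-fold, 2.37-fold and 3.47-fold, and the third at least 6.20-fold, at least 6.20-fold and 6.04-fold; all 3 put vector highest. The calcium-binding protein gene CALB1 was at 1624 in vector, 140.1 with wild-type YAP, 252 with S94A and at the floor in YAP-W1W2, which is 11.6-fold, 6.46-fold and at least 22.3-fold lower. AZGP1, a secreted glycoprotein of glandular epithelium, was at 1335, 139, 185 and 91.3 in the order vector, wild type, S94A, W1W2, and thus 9.60-fold, 7.20-fold and 14.6-fold lower. In both genes all 3 YAP arrays lay far below vector.

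MALL, a membrane protein of the MAL family, also had YAP-WT as its lowest array and YAP-S94A as its highest. It was at 186 in vector, 25.6 with wild-type YAP, 841 with S94A and 277 with W1W2. It was at least 2.55-fold lower than vector in YAP-WT and 4.53-fold higher in YAP-S94A, and YAP-S94A stood at least 11.5-fold above YAP-WT. The ammonia channel gene RHCG stayed at the floor.

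**Figure D3:**
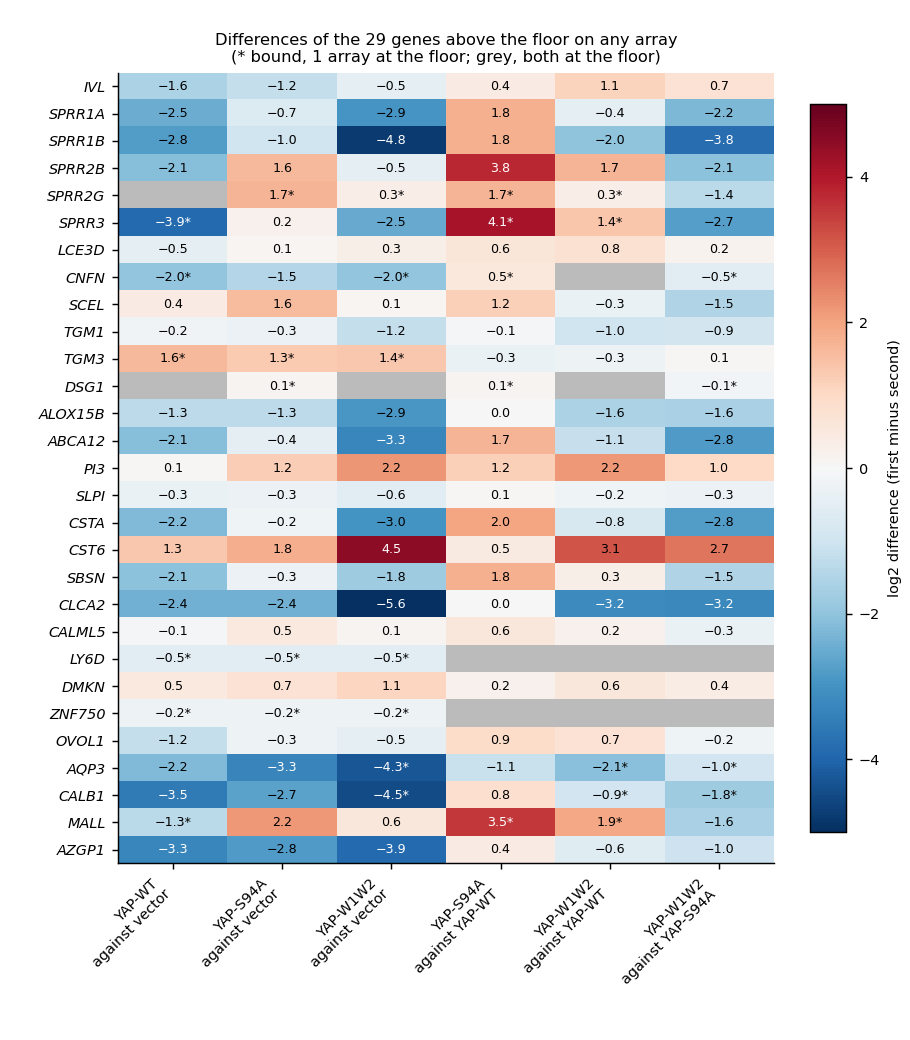
Log2 differences (first array minus second, colour scale) of the 29 genes above the floor on any array in the 6 comparisons; an asterisk marks a lower bound with 1 array at the floor, and grey cells had both arrays at the floor. SPRR2B and MALL are lower in YAP-WT and higher in YAP-S94A than in vector, while CLCA2, CALB1 and AZGP1 are lower in all 3 forms.

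Several probe sets were available for 11 of the 35 genes, and they allow a look at the same RNA with other probes, though not at another culture. For YAP-WT against vector, 9 genes had at least 2 probe sets with a value, and in 2 of these, PI3 and SCEL, probe sets lay on opposite sides of 0, both with differences under 2-fold. In YAP-S94A against vector this held for 1 of 9 genes, SPRR3, and in YAP-W1W2 against vector for 0 of 9. Probe sets of a gene lay at least 2-fold apart for AQP3 in the first comparison, for SPRR3 and AQP3 in the second and for SPRR1A, CLCA2 and AQP3 in the third. Between YAP forms, probe sets lay on opposite sides of 0 for ALOX15B in YAP-S94A against YAP-WT. The same held for AQP3 and SCEL in YAP-W1W2 against YAP-WT, and for SPRR3 and AQP3 in YAP-W1W2 against YAP-S94A.

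**Figure D4:**
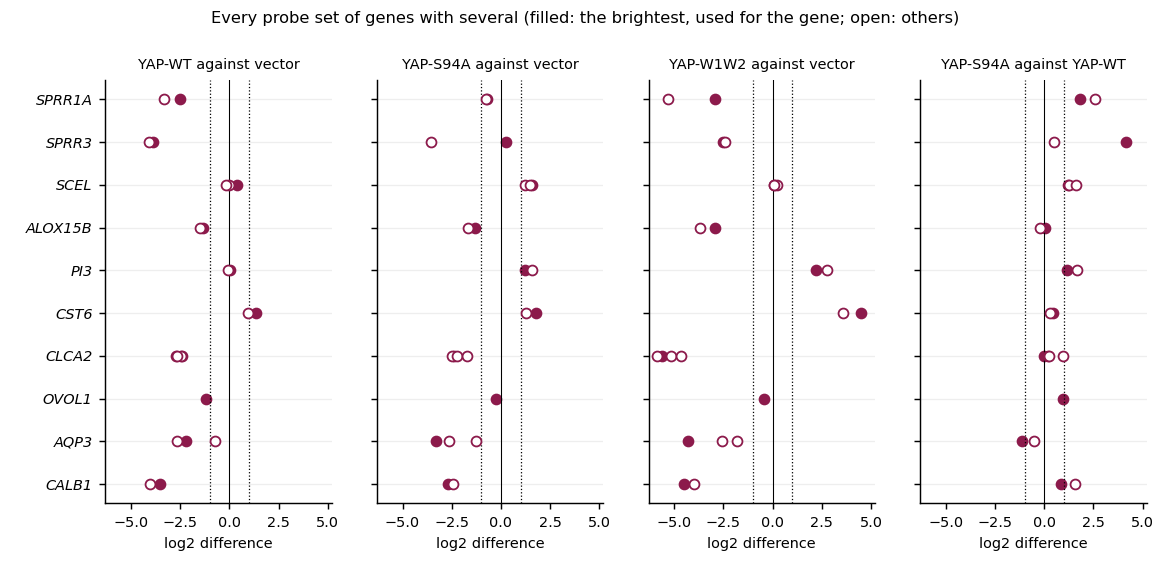
Log2 difference (horizontal axis) of every probe set with a value for the genes that have several and are above the floor, in 4 comparisons; filled points are the brightest probe sets, open points the others, and dotted lines mark 2-fold. The SPRR3 points lie apart in both comparisons that use YAP-S94A, and the CLCA2 points lie below −1.7 in all 3 comparisons with vector.

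SPRR1A, SPRR3 and SPRR1B are consecutive protein-coding genes in the RefSeq order of the epidermal differentiation complex. In the run of 47 protein-coding genes from TCHHL1 to PGLYRP4, 24 had a probe set of 1 symbol, 8 of them in the set described here, and 18 were above the floor on at least 1 array. SPRR4, just before SPRR1A in that order, had 419.7 in vector, 646 with wild-type YAP, 475 with S94A and 672 with W1W2, and did not pass 2-fold in any comparison. Loricrin, the most abundant protein of the epidermal envelope, was at the floor on all 4 arrays, from 23.2 to 31.4.

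Related lists of the same programme were set beside these genes. The lists, like the 35 genes, were chosen with earlier results of these data known, so contrasts between them are partly set by that choice. For scale, the shares of all 19775 genes past 2-fold below and above vector were 4.22% and 6.42% for YAP-WT. These shares were 5.3% and 7.18% for YAP-S94A, and 6.51% and 8.47% for YAP-W1W2. Some of the list counts below are near such shares, and none was tested against them. Of 18 other genes of the envelope and differentiation complex, 0 were at least 2-fold lower and 0 higher in YAP-WT than in vector; 2 were lower and 1 higher in YAP-S94A, and 2 lower and 1 higher in YAP-W1W2. The lower ones were periplakin (PPL), a plakin that anchors the envelope to filaments, at 3490.4 in vector, 2955 with wild-type YAP, 979 with S94A and 1151 with W1W2, and desmoplakin (DSP). The higher 1 was CRCT1, at 87.0, 69.5, 203 and 602 in the same order, and 6.91-fold above vector in YAP-W1W2.

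Of 26 cross-linking, lipid and desquamation enzymes, 3 were lower and 1 higher in YAP-WT, 0 lower and 3 higher in YAP-S94A, and 4 lower and 2 higher in YAP-W1W2 than in vector. The kallikrein KLK7, which digests corneodesmosomes, was at 5350.1 in vector, 668 with wild-type YAP, 2754 with S94A and 498 with W1W2. It thus stood in the order seen for SPRR1B and CSTA, 8.01-fold lower in YAP-WT and 1.94-fold in YAP-S94A. KLK5, its activator, was 4.67-fold and KLK8 2.73-fold lower in YAP-WT, and the tissue transglutaminase TGM2 was 10.2-fold higher.

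Of 25 transcription factors of keratinocyte differentiation, 4 were lower and 0 higher in YAP-WT, 4 lower and 1 higher in YAP-S94A, and 8 lower and 1 higher in YAP-W1W2 than in vector. The epithelial ETS factor ELF3 was at 704 in vector, 186 with wild-type YAP, 703 with S94A and 308 with W1W2, so that YAP-S94A lay at the vector level. Its relative EHF was at 2128, 236, 172 and 95.6 in the same order, low in all 3 forms. Of the AP-1 subunits, JUNB was 3.32-fold lower in YAP-WT, and FOSL1 was 6.67-fold higher in YAP-S94A, at 301 in vector and 2006.5 with S94A.

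Of 12 keratins, 4 were lower and 2 higher in YAP-WT, 5 lower and 1 higher in YAP-S94A, and 4 lower and 3 higher in YAP-W1W2. KRT15 was 11.4-fold lower in YAP-WT and 1.10-fold in YAP-S94A, whereas KRT1, the suprabasal keratin of the epidermis, was 3.92-fold and 4.11-fold lower. KRT13 was 5.66-fold lower in YAP-WT. The 2 higher in YAP-WT were KRT80, by 4.52-fold, and KRT4, by 4.00-fold. In YAP-S94A, KRT80 was 2.28-fold higher than in vector and KRT4 4.65-fold lower. Of 17 desmosome and adhesion genes, 5 were lower and 1 higher in YAP-WT, 1 lower and 2 higher in YAP-S94A, and 5 lower and 0 higher in YAP-W1W2. Desmoglein 3 (DSG3) was at 11952 in vector, 1863 with wild-type YAP, 7712 with S94A and 1231 with W1W2. It was 4.14-fold higher in YAP-S94A than in YAP-WT.

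**Figure D5:**
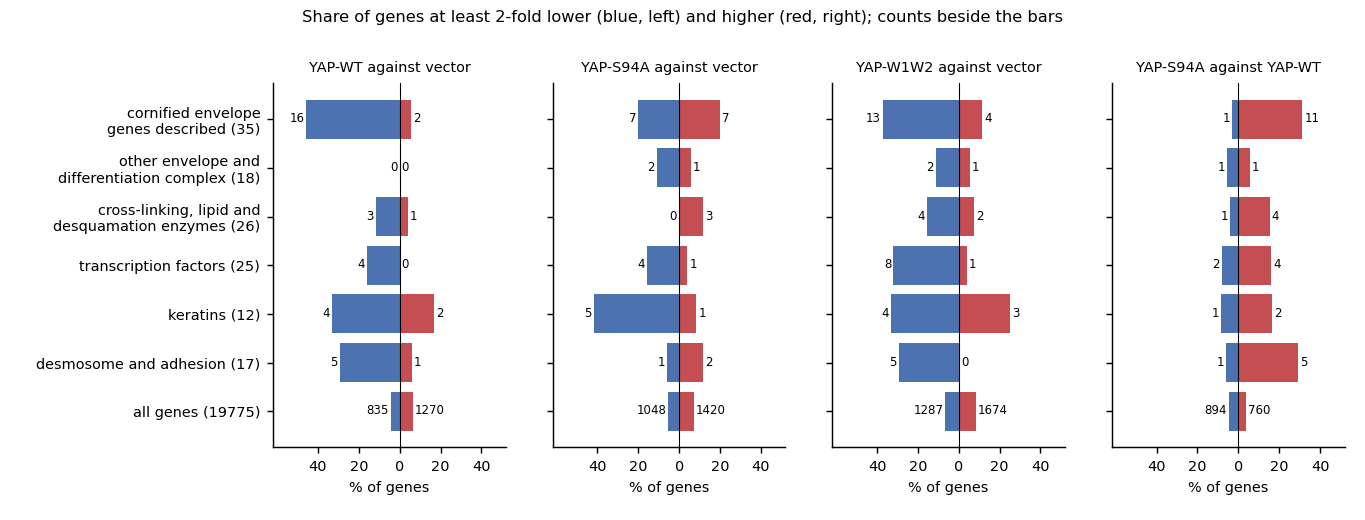
Share of genes (horizontal axis, percent) at least 2-fold lower (blue, to the left) or higher (red, to the right) in 4 comparisons, for the 35 genes, 5 related lists and all 19775 genes, with the number of genes beside each bar and the list size in parentheses. The 35 genes have 16 lower genes in YAP-WT against vector and 11 higher in YAP-S94A against YAP-WT, while the other envelope and differentiation complex genes have 0 and 1. The 35 genes and the lists were chosen with earlier results of these data known.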

How the data were processed

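RNA of 4 MCF10A cultures was measured on 1 Affymetrix array each. The deposited values are probe set intensities on a linear scale. Per the submitters' processing notes the software was GCOS; its settings and scaling target, and a genome build, were not given in the sources used here. The table held 54675 probe sets, of which 62 controls were kept apart; 41091 of the rest had 1 gene symbol in the platform annotation, 1801 several and 11721 none. The 2% trimmed means of the arrays lay within a ratio of 1.10, inside the 10% allowed, so values were used as deposited, floored at the 40th percentile (72.9) and taken to log2. Genes were counted at 2-fold. The number of arrays limits the precision, and no test was made. Every member could be named, and from each related list up to 4 genes with the largest difference in a comparison. The members and lists were chosen with earlier results of these data known. The alternatives were other floors, scalings, probe set rules and a filter on dim genes. Python 3.11.15, NumPy 2.4.6, pandas 2.3.3 and SciPy 1.17.1 were used, and the counting was tested on simulated data.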

Additional observations from a re-analysis of the deposited data

Results flagged for a closer look

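SPRR2B and MALL lay on opposite sides of vector in different YAP forms, each by at least 2-fold. The log2 difference of SPRR2B from vector was −2.15 in YAP-WT and 1.61 in YAP-S94A. That of MALL was −1.35 in YAP-WT, a bound because that array was at the floor, and 2.18 in YAP-S94A. With 1 array per group the difference between the forms was not tested. Each gene had 1 probe set, and that of SPRR2B may bind related transcripts.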

How the results depend on the processing

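The counts of genes past 2-fold and the medians were recomputed under 8 settings, of which the removal of probe sets with the suffix _x was chosen after seeing the data. Of these 144 values, 135 kept within 1.5 times of the count, or within 1.5-fold of the median difference, and 9 did not. For YAP-W1W2 against YAP-S94A, the count of higher genes was 2 in place of 1 with the floor at the 20th percentile, with array medians centred, with the mean over probe sets and without _x probe sets. The median of that comparison was −0.97 with the 20th percentile floor and −1.25 over the 24 members bright enough to be called measured. For YAP-WT against vector the median was −1.46 over those 24 genes, which drops genes at the floor by construction, and the count of higher genes was 1 with the floor at the 50th percentile. For YAP-S94A against YAP-WT the count of lower genes was 0 with the mean over probe sets. SPRR3 in YAP-W1W2 against YAP-S94A turned from −2.74 to 1.16 (log2) without _x probe sets. Where not said, the cause was not tested. Of 1560 differences of single genes, 81 moved by more than 1.5-fold and 1 reversed, 40 of these 81 with the 20th percentile floor. Many of the 1560 could not move. The filter on dim genes leaves its 144 single-gene values unchanged by construction. Rules on probe sets cannot change the values of the 24 genes with 1 probe set. No paired analysis was possible because each group had 1 array. Signal near background limits 16 of the 35 genes, which were at the floor on at least 1 array.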
